A study of Homo sapiens with 5 samples.

Results

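Class I antigen processing and presentation was followed through 10 genes, B2M, HLA-E, HLA-F, TAP1, TAP2, TAPBP, PSMB8, PSMB9, ERAP1 and NLRC5. Every probe set that the platform annotation assigns to these symbols was taken, which gave 25 probe sets of the 54675 on the array, where 19775 genes are named in all. The array, an Affymetrix expression chip read with biotin-labelled RNA, was hybridised with total RNA from 3 human renal cell carcinoma lines to compare gene expression across increasing metastatic activity. LM2 is the lung metastatic line of generation 2 and was measured on 2 arrays. LM1 is the lung metastatic line of generation 1 and had 1 array. SN12C is the parental line, labelled non-metastatic, and had 2 arrays. No treatment, time or genotype difference is given in the labels beyond the line itself. The repeat arrays are labelled biological replicates of 1 line each, so a p-value here measures the spread between these arrays and not between independently derived metastatic lines.

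Nucleated cells display fragments of their own proteins on MHC class I molecules, where CD8 T cells inspect them. The proteasome cuts the proteins, the TAP transporter carries the peptides into the endoplasmic reticulum, tapasin and other chaperones help to load them, and a class I heavy chain paired with beta-2-microglobulin carries them to the surface. Interferon-gamma raises most of these genes together, inducible proteasome subunits among them, and tumours, renal carcinomas among them, are known to lose parts of this machinery.

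The promoters of these genes are shown because several of them lie side by side in the MHC and are known to answer to the same factors. RefSeq windows on GRCh38.p14, from 250 bases before to 50 bases after each listed start of a gene, were matched for 8 of the 10 members. HLA-E and NLRC5 are named only. Each line gives the strand that the gene is read from, 5′ to 3′. Capitals mark matches to an interferon-stimulated response element, searched on both strands as GAAA, any 2 bases and GAAA, and to a kappaB motif, searched on both strands as GGGA, any base and TTTCC. The TAP1 window (chr6:32853655-32853954, minus strand) and the PSMB9 window (chr6:32853942-32854241, plus strand) are given whole, since the 2 genes are read away from each other from starts 488 bases apart and their windows share 13 bases. The other lines are stretches of 50 to 56 bases around the matches, from chr15:44711353-44711408 (plus strand) for B2M, chr6:29723258-29723307 (plus) for HLA-F, chr6:32838768-32838817 (minus) for TAP2, chr6:33314063-33314118 (minus) for TAPBP, chr6:32844022-32844071 (minus) for PSMB8 and chr5:96807914-96807963 (minus) for ERAP1.
TAP1: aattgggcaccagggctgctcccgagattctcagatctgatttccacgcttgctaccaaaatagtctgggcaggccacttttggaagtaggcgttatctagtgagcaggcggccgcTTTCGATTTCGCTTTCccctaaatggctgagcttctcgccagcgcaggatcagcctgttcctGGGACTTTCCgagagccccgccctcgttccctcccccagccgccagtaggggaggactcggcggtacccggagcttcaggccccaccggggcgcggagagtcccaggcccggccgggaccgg
PSMB9: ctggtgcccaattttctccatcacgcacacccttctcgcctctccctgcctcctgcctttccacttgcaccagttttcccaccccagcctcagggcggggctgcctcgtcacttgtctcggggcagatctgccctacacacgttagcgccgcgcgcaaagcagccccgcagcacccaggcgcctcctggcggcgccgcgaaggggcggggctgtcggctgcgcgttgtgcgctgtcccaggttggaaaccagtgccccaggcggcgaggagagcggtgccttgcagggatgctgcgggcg
B2M: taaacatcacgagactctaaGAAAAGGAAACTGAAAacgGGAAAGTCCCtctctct
HLA-F: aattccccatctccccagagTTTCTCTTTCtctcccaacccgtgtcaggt
TAP2: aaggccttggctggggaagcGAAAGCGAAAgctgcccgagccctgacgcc
TAPBP: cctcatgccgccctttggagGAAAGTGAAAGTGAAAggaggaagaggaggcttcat
PSMB8: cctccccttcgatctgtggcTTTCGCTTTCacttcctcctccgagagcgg
ERAP1: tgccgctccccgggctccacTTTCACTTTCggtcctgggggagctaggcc

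The response element letters were found for 7 of the 8 matched members, all but PSMB9, against 4.38% of 27305 genes with such windows. The TAP1 match lies between the TAP1 and PSMB9 starts and outside the PSMB9 window. Overlapping copies form a longer run in B2M, TAP1 and TAPBP. The first matching base lay between 156 bases (HLA-F) and 4 bases (PSMB8) before the start in 6 genes, and 2 bases after it in ERAP1. PSMB8, TAP1 and ERAP1 have 2 windows each. The match belongs to the second window listed for PSMB8 and to the first for TAP1 and ERAP1, and their other windows held none. Counted by window, 7 of 11 member windows held the letters, against 3.57% of 35116 windows. The kappaB letters were found in B2M and TAP1, against 0.678% of genes, and did not overlap the response element in either. CCAAT, a box bound by the NF-Y factor that also serves class I promoters, was present on either strand in 5 of the 8 (B2M, ERAP1, HLA-F, PSMB9 and TAP1), against 39.7% of genes. The PSMB9 and TAP1 matches are the same site, in the 13 bases that their windows share, so they are not separate matches. A match is a description of letters in this window and was not set against any binding measurement.

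The values are RMA signals on the log2 scale, in which 1 unit is a change by a factor of 2. They were tested with limma over 33376 probe sets that reached the filter on low values (6.03 on at least 2 arrays). Of the 25 member probe sets 22 reached it, and 3 dim ones, of B2M, TAP2 and ERAP1, did not. The LM2 arrays were nearly identical (Pearson r = 0.997 across tested probe sets), the SN12C arrays less so (0.961), and SN12C replicate 2 was closer to both LM2 arrays (0.981 and 0.984) than to its own replicate. On the LM1 array the 3′ control probe sets stood 3.43 log2 units above the 5′ ones for beta-actin and 2.09 above for GAPDH, against -0.07 to 0.47 on the other arrays. Of 6 measured renal tubule and epithelial markers 5 were at or above the filter on all arrays: KRT18 (14.04 to 14.72), KRT8 (12.46 to 13.21) and PAX8 (9.19 to 9.82) well above it, PAX2 (6.34 to 6.46) and LHX1 (6.06 to 6.08) close to it. CDH16, a tubule cadherin, reached it only on SN12C replicate 1, at 6.20. Of 8 leukocyte markers 5 were at or above the filter on all arrays, over a range of 4.99 to 8.35 for the list, and PTPRC, which encodes CD45, was below it on every array (4.99 to 5.36). Of 5 endothelial markers 4 were at or above it, over a range of 4.89 to 7.65, and CDH5 was below it on every array. No leukocyte marker that was tested separated LM2 from SN12C without overlap; among endothelial markers VWF did with LM2 above (0.38 ± 0.09, adjusted p 0.434) and TEK with LM2 below (-0.38 ± 0.24, adjusted p 0.679), and their part in the results was not tested.

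Between LM2 and SN12C cells the largest positive differences among the 10 members were those of the inducible proteasome subunit PSMB9 (0.81 ± 0.35 log2 units, limma SE) and the transporter chains TAP1 (0.45 ± 0.35) and TAP2 (0.37 ± 0.08). The negative ones were those of the transactivator NLRC5 (-0.30 ± 0.16), beta-2-microglobulin (-0.24 ± 0.16) and the peptide trimmer ERAP1 (-0.06 ± 0.08). None of these differences passed the limma test at an adjusted p of 0.05. The count was 0 of the 22 tested member probe sets, and 0% of all tested probe sets. Before adjustment 1 of 22, for TAP2, had a p under 0.05, against 9.52% of all tested probe sets. An exact permutation test of 2 arrays against 2 could not give a two-sided p below 0.333. The count depended on which parental array was kept: without SN12C replicate 2 the fit called 6 of 22 members and 24.3% of all tested probe sets, and without SN12C replicate 1 it called 0 members and 0% of all. Either fit has only the LM2 replicates to judge the spread by.

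Arrays of the 2 lines did not overlap for 12 of the 22 tested member probe sets. LM2 lay above both SN12C arrays for 8 of 22 (36.4%), against 23.7% of all tested probe sets. It lay below both for 4 of 22 (18.2%), against 13.0%. The 8 belonged to PSMB9, TAP2 (3), TAPBP (1), HLA-E (2) and HLA-F (1), and the 4 to B2M, NLRC5 and ERAP1 (2). The median difference over all 25 member probe sets was 0.08 log2 units, with a range of -0.73 to 0.81, and that of all tested probe sets was 0.03. The median became negative with quantile normalization (-0.047) and without probe sets of the _x_at and _s_at kinds (-0.0082), which can bind related transcripts. Through the brightest probe set of each gene, 7 of the 10 genes were higher in LM2, with a median of 0.12. These 7 are the members on chromosome 6 (0.06 to 0.81, median 0.26, beside a median of 0.06 for the 769 measured genes of that chromosome), and HLA-F and TAPBP turned negative among them with quantile normalization.

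**Figure D1:**
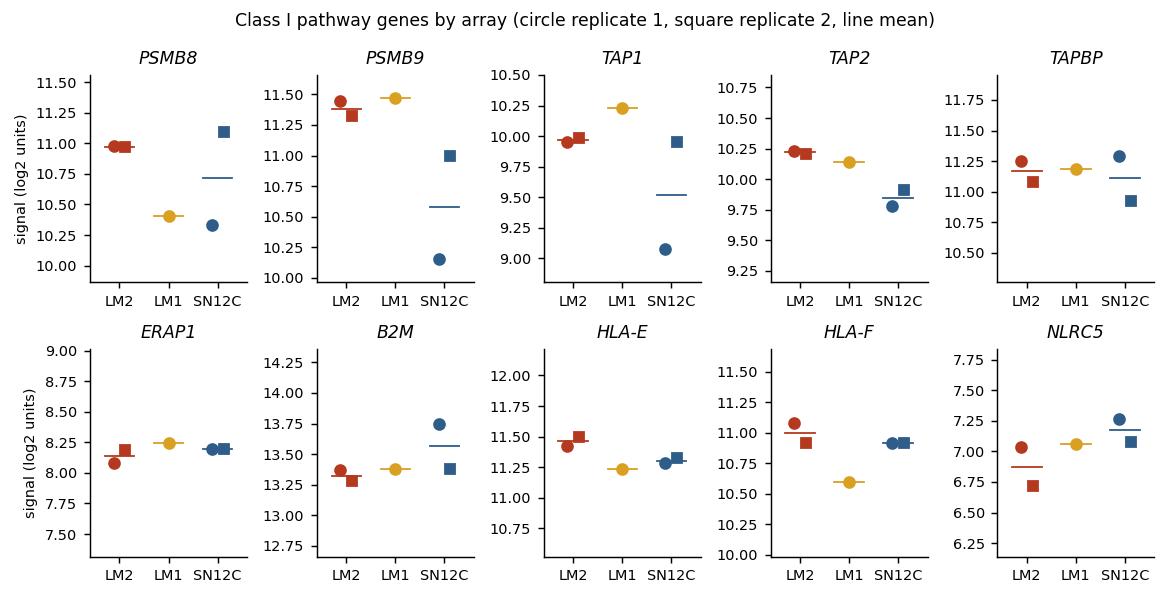
RMA signal in log2 units of each member, through its brightest probe set, on every array, in LM2, LM1 and SN12C cells. Circles are replicate 1, squares replicate 2 and lines the mean of a line; the axes of all panels span the same number of log2 units from different starting points. SN12C replicate 1 lies far below replicate 2 for PSMB8, PSMB9 and TAP1.

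The inducible proteasome subunits PSMB8 and PSMB9 replace catalytic subunits of the standard proteasome and change the cuts it makes. PSMB9 had 11.44 and 11.32 in LM2 cells, 11.47 in LM1 cells, and 10.15 and 11.00 in SN12C cells. Both LM2 arrays and the LM1 array were above both SN12C arrays. The LM2 mean was 11.38 ± 0.09 and the SN12C mean 10.58 ± 0.60 (SD, n = 2 each), a difference of 0.81 ± 0.35 with an adjusted p of 0.620. Against SN12C replicate 1 alone LM2 was higher by 1.23, and against replicate 2 alone by 0.38, so the size of the difference depends on which parental array it is taken from. PSMB8 had 10.97 on both LM2 arrays, 10.40 on the LM1 array, and 10.33 and 11.09 on the SN12C arrays. The LM2 values fell between those of the SN12C arrays, and the difference of 0.26 ± 0.31 (adjusted p 0.723) became -0.12 without SN12C replicate 1.

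TAP1 and TAP2 form the peptide transporter, and TAPBP encodes tapasin, which tethers it to the class I molecule. TAP1 had 9.95 and 9.99 in LM2 cells, 10.23 in LM1 cells, and 9.08 and 9.95 in SN12C cells. The lower LM2 array and the higher SN12C array carried the same value, so the lines met without a gap. The difference was 0.45 ± 0.35 with an adjusted p of 0.679, and it was 0.89 against SN12C replicate 1 and 0.02 against replicate 2. TAP2, through its brightest probe set, had 10.23 and 10.21 in LM2 cells, 10.14 in LM1 cells, and 9.78 and 9.91 in SN12C cells. This was the steadiest of the larger member differences: LM2 was above both parental arrays, by 0.43 and 0.31, and the LM2 and SN12C means were 10.22 ± 0.01 and 9.85 ± 0.09 (SD, n = 2 each). The difference of 0.37 ± 0.08 had an adjusted p of 0.427. Both other tested TAP2 probe sets also had LM2 above SN12C without overlap, by 0.43 and 0.71. The fourth, below the filter, had 5.36 and 5.40 in LM2 cells, 5.91 in LM1 cells, and 5.39 and 4.99 in SN12C cells.

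TAPBP read differently by probe set. Its brightest had 11.25 and 11.08 in LM2 cells, 11.19 in LM1 cells, and 11.29 and 10.92 in SN12C cells, a difference between LM2 and SN12C of 0.06 ± 0.17 (adjusted p 0.891) that became -0.083 with quantile normalization. The second had 9.83 and 9.43 in LM2 cells, 7.55 in LM1 cells, and 8.85 and 9.27 in SN12C cells. There LM2 was above SN12C by 0.57 ± 0.24 (adjusted p 0.617) and LM1 stood well below both other lines. The third, near the filter, had 6.10 on both LM2 arrays and in LM1 cells, and 6.53 and 6.06 in SN12C cells.

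**Figure D2:**
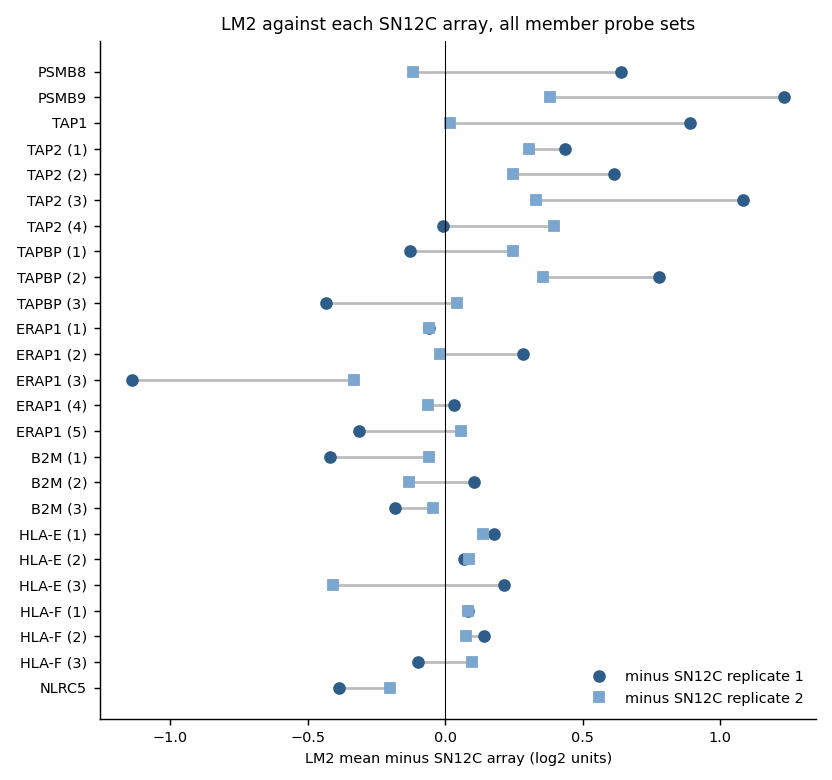
LM2 mean minus each SN12C array, in log2 units, for the 25 member probe sets; numbers in brackets order the probe sets of a gene from bright to dim. The circle (SN12C replicate 1) and the square (replicate 2) lie on opposite sides of 0, or far apart, for many of them, while the first 3 TAP2 probe sets and PSMB9 have both points above 0.

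ERAP1 trims peptides in the endoplasmic reticulum to the length that class I molecules bind. Its brightest probe set had 8.08 and 8.19 in LM2 cells, 8.25 in LM1 cells, and 8.195 on both SN12C arrays. The 5 arrays lay within a narrow band, and LM2 differed from SN12C by -0.06 ± 0.08 (adjusted p 0.749). One dimmer ERAP1 probe set had 7.04 and 6.89 in LM2 cells, 6.24 in LM1 cells, and 8.10 and 7.30 in SN12C cells. Its LM2 values were below both SN12C arrays, a difference of -0.73 ± 0.33 with an adjusted p of 0.637. This was the largest negative difference between LM2 and SN12C among the 25 member probe sets. The other tested ERAP1 probe sets differed by 0.13 and -0.01, with overlap.

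B2M encodes the light chain shared by all class I molecules. Its brightest probe set had 13.37 and 13.28 in LM2 cells, 13.38 in LM1 cells, and 13.74 and 13.38 in SN12C cells. LM2 was below both parental arrays (-0.42 against replicate 1 and -0.06 against replicate 2), and the difference of -0.24 ± 0.16 had an adjusted p of 0.679. The second B2M probe set had 13.47 and 13.49 in LM2 cells, 12.13 in LM1 cells, and 13.38 and 13.61 in SN12C cells. On it LM2 lay between the parental arrays (-0.01 ± 0.12), and only the LM1 array stood apart. These signals are near the top of the array's scale in every line.

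HLA-E and HLA-F encode non-classical heavy chains. HLA-E presents leader peptides of other class I chains to NK cell receptors, and HLA-F is less well understood. HLA-E had 11.42 and 11.50 in LM2 cells, 11.24 in LM1 cells, and 11.28 and 11.33 in SN12C cells. LM2 was above both parental arrays by a small margin, 0.16 ± 0.08 with an adjusted p of 0.661. A second HLA-E probe set gave 0.08 in the same direction without overlap. The third had 9.30 and 9.48 in LM2 cells, 9.56 in LM1 cells, and 9.18 and 9.80 in SN12C cells, so its parental arrays spanned both others. HLA-F had 11.08 and 10.91 in LM2 cells, 10.59 in LM1 cells, and 10.91 on both SN12C arrays. The LM2 difference of 0.08 ± 0.09 (adjusted p 0.715) came from LM2 replicate 1 alone, since replicate 2 matched the SN12C value. The second HLA-F probe set was higher in LM2 by 0.11 without overlap, and the third, near the filter, differed by -0.10 and 0.10 from the parental arrays. The bright HLA-E and HLA-F probe sets are of the _x_at kind and may bind transcripts of other class I genes, so their assignment to 1 gene is uncertain.

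NLRC5 encodes the transactivator that acts at class I promoters. It had 7.04 and 6.71 in LM2 cells, 7.06 in LM1 cells, and 7.26 and 7.08 in SN12C cells. LM2 and LM1 lay below both parental arrays, and LM2 differed by -0.39 from replicate 1 and by -0.20 from replicate 2. The means of 6.88 ± 0.23 in LM2 and 7.17 ± 0.13 in SN12C (SD, n = 2 each) differed by -0.30 ± 0.16 with an adjusted p of 0.679. NLRC5 and the brightest B2M probe set thus lay on the other side of 0 from PSMB9, TAP1 and TAP2, with none past the threshold.

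The gap between the SN12C arrays was wider than the difference between LM2 and SN12C for 13 of the 22 tested member probe sets. Over these 22 the median gap between replicates was 0.08 log2 units in LM2 cells and 0.33 in SN12C cells. Over all tested probe sets it was 0.07 in LM2 cells and 0.28 in SN12C cells. The SN12C gap was widest for TAP1 (-0.87, replicate 1 minus replicate 2), PSMB9 (-0.85), PSMB8 (-0.76) and one TAP2 probe set (-0.75), all lower on replicate 1, and for one ERAP1 probe set (0.81), higher on replicate 1. Identical values on at least 2 arrays occurred for 8 of the 22 (36.4%), against 40.9% of all tested probe sets. The arrays are bulk RNA, so fewer cells with a transcript and less of it in each cell cannot be told apart.

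In LM1 cells, measured once, PSMB9 was higher than in SN12C by 0.90 ± 0.42, TAP1 by 0.71 ± 0.43 and TAP2 by 0.29 ± 0.10, with adjusted p-values of 0.333, 0.441 and 0.236. These comparisons borrow their spread from the LM2 and SN12C pairs and use the same SN12C arrays as those of LM2. No member passed the test, beside 0% of all tested probe sets, and 3 of 22 had an unadjusted p under 0.05, against 23.2%. LM1 lay above both SN12C arrays for 4 of 22 tested member probe sets, against 38.7% of all, and below both for 11 of 22, against 27.7%. Leaving out SN12C replicate 1 gave 3 member calls of 22, against 19.1% of all tested probe sets, and leaving out replicate 2 gave 7 of 22, against 31.1%.

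The largest LM1 differences were seen by only some probe sets of a gene. TAPBP differed between LM1 and SN12C by -1.51 ± 0.29 on its second probe set (adjusted p 0.118) and by 0.08 on its brightest, where quantile normalization turned the sign to -0.026. B2M differed by -1.37 ± 0.14 on its second probe set (adjusted p 0.0800) and by -0.18 on its brightest. ERAP1 had -1.46 ± 0.41 on the third probe set and 0.05 on its brightest, -0.0096 with quantile normalization. TAP2 had -0.83 on the third and 0.29 on its brightest. The LM1 array is also the one with the wide gap between 3′ and 5′ control signals given above, and the part of that gap in these differences was not tested.

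**Figure D3:**
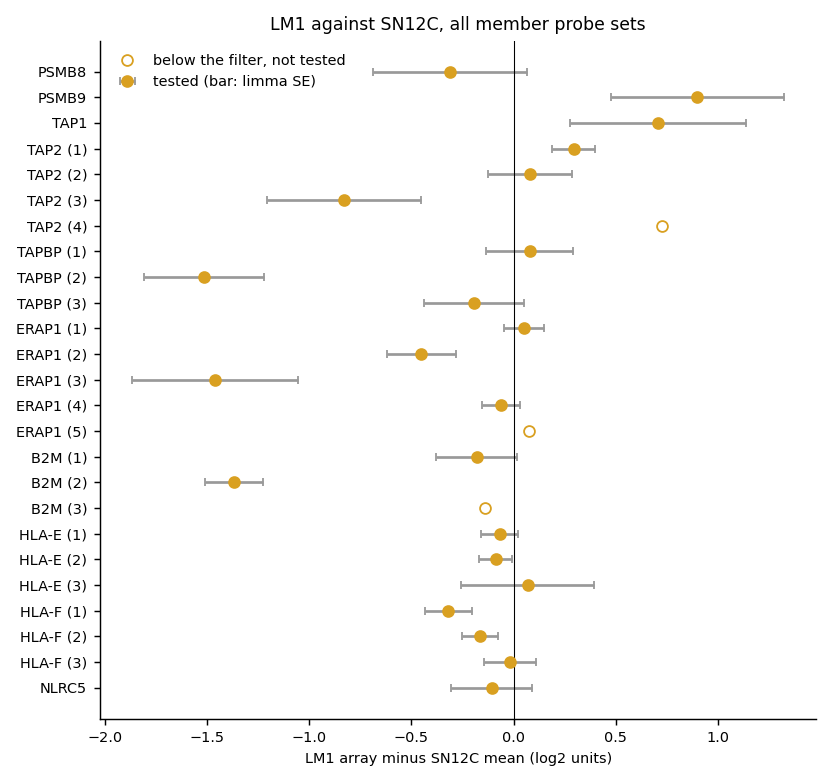
LM1 array minus SN12C mean, in log2 units, for the 25 member probe sets, with the limma SE of the 22 tested ones as bars; open circles are below the filter. Probe sets of 1 gene diverge for B2M, TAPBP, TAP2 and ERAP1, with 3 of the 25 at -1.37 or lower.

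LM2 and LM1, the later and the earlier metastatic line, were compared through the same fit. No member passed the test, beside 0% of all tested probe sets, and 6 of 22 had an unadjusted p under 0.05, against 20.9%. LM2 lay above LM1 for 13 of 22 tested member probe sets, against 34.1% of all, and below it for 6 of 22, against 45.5%. The differences of the second TAPBP probe set (2.08 ± 0.29, adjusted p 0.114), the third TAP2 probe set (1.54 ± 0.38, adjusted p 0.175) and the second B2M probe set (1.35 ± 0.14, adjusted p 0.106) were the only ones of 1 log2 unit or more, and they were among those with low LM1 signals above. Through the brightest probe sets the largest were those of PSMB8 (0.57 ± 0.38) and HLA-F (0.40 ± 0.11). PSMB9 (-0.09), TAP1 (-0.26), TAP2 (0.08) and B2M (-0.06) differed little between the metastatic lines beside standard errors of 0.42, 0.43, 0.10 and 0.20. With either SN12C array left out, and thus only the LM2 replicates to judge the spread by, the fit called 6 of 22 members here, against 17.3% of all tested probe sets.

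The genes beside TAP1 in the MHC allow a comparison within a short interval. In RefSeq gene order TAP2 and PSMB8 precede TAP1 and PSMB9 follows it. The differences of these 4 between LM2 and SN12C were 0.26 to 0.81, with 0 past the threshold; the arrays overlapped for TAP1 and PSMB8, and not for TAP2 and PSMB9. The next genes after PSMB9 encode HLA-DM, the editor of class II peptides: HLA-DMB differed between LM2 and SN12C by -0.26 ± 0.14 and HLA-DMA by -1.12 ± 0.30. HLA-DMA had 5.60 and 6.25 in LM2 cells, 6.22 in LM1 cells, and 6.88 and 7.22 in SN12C cells, with no overlap (adjusted p 0.460). Among the other class II genes in the interval, HLA-DPA1 (-1.20), HLA-DRB1 (-0.67) and HLA-DPB1 (-0.41) were also lower in LM2 without overlap. HLA-DQA1 (-0.07), HLA-DQB1 (-0.03), HLA-DOB (-0.05), HLA-DQB2 (0.0028) and HLA-DOA (0.02) differed little, with overlap.

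The class II list, proteins that present peptides to CD4 T cells, held 9 genes, all tested, with 0 past the threshold in either direction. LM2 lay below both SN12C arrays for 6 of 9 and above for none, against 14.1% and 25.3% of all 15024 tested genes. The list median was -0.32, and that of all tested genes 0.03. HLA-DPA1 had 6.34 and 6.15 in LM2 cells, 6.03 in LM1 cells, and 7.04 and 7.84 in SN12C cells, a difference of -1.20 ± 0.33 with an adjusted p of 0.471. HLA-DRB1 had 6.48 and 6.54 in LM2 cells, 6.55 in LM1 cells, and 7.32 and 7.04 in SN12C cells, a difference of -0.67 ± 0.13 with an adjusted p of 0.395. All these class II signals lay between 5.60 and 7.84, not far from the filter of 6.03.

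**Figure D4:**
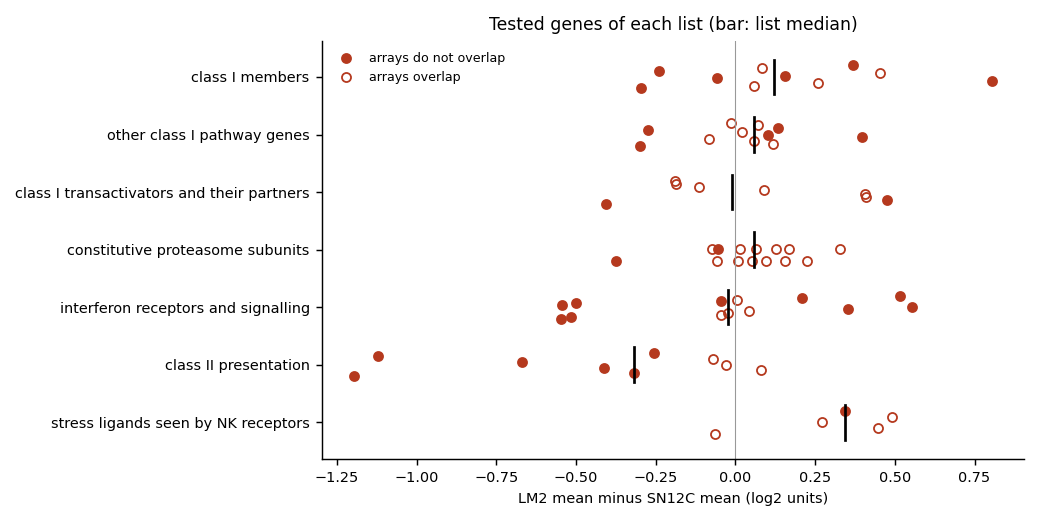
LM2 mean minus SN12C mean, in log2 units, of each tested gene through its brightest probe set, by list, with a bar at the list median. Filled points are genes whose LM2 and SN12C arrays do not overlap; the class I members spread over both sides of 0 and 6 of the 9 class II genes are filled and below it.

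Other steps of the class I pathway were described through lists of the remaining loading, proteasome and signalling genes. Of 13 further pathway genes 11 were tested, 0 passed in either direction, and the median was 0.06. Without overlap 3 of 11 lay above and 2 of 11 below, near the 25.3% and 14.1% of all tested genes. PSME1, a subunit of the interferon-inducible proteasome activator, had 12.04 and 12.05 in LM2 cells, 11.96 in LM1 cells, and 11.51 and 11.79 in SN12C cells, a difference of 0.40 ± 0.13 (adjusted p 0.529). The measured genes of its chromosome 14 had a median of 0.23 over 469 genes, and the part of that shift in the PSME1 difference was not tested. PSMB10, another inducible catalytic subunit, had 10.12 and 10.15 in LM2 cells, 10.62 in LM1 cells, and 10.34 and 10.48 in SN12C cells. It thus lay below both parental arrays in LM2 (-0.28 ± 0.09, adjusted p 0.512), opposite to PSMB9. HSPA5, the chaperone BiP, differed by -0.30 ± 0.18 (adjusted p 0.679).

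Of 15 constitutive proteasome genes 14 were tested and 0 passed in either direction. Their median was 0.06. Without overlap none lay above, against 25.3% of all tested genes, and 2 of 14 lay below, at the 14.1% of all tested genes: PSMB2 (-0.38 ± 0.11, adjusted p 0.502) and PSMB4 (-0.06). Among 9 transactivator partners 8 were tested and 0 passed, with a median of -0.01. Through its brightest probe set CREB1, a factor of the complex built on class I promoters, was higher in LM2 without overlap (0.48 ± 0.35). RFX5, a subunit of the RFX complex, was lower (-0.41 ± 0.21), and both had an adjusted p of 0.679. These were 1 of 8 above and 1 of 8 below, against 25.3% and 14.1% of all tested genes. The CREB1 difference was 0.91 against SN12C replicate 1 and 0.04 against replicate 2. Its other probe sets gave 0.80 and 0.81 above and -0.28 and -0.32 below without overlap, and 0.14 and 0.10 with overlap. The other RFX5 probe set differed by -0.07, with overlap.

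The interferon receptor and signalling list had 13 of 15 genes tested and 0 past the threshold, with a median of -0.02. LM2 lay above SN12C without overlap for 4 of 13, against 25.3% of all tested genes, and below for 5 of 13, against 14.1%. IFNGR2, the second chain of the interferon-gamma receptor, had 10.93 and 11.15 in LM2 cells, 10.97 in LM1 cells, and 10.27 and 10.71 in SN12C cells (0.55 ± 0.20, adjusted p 0.566). It lies on chromosome 21, where the 166 measured genes had a median of 0.34, and the part of that shift was not tested. JAK1, the kinase bound to the other chain, had 11.38 and 11.52 in LM2 cells, 11.62 in LM1 cells, and 11.83 and 12.17 in SN12C cells (-0.55 ± 0.16, adjusted p 0.487). This was its brightest probe set, and the other tested JAK1 probe sets differed by -0.26 and -0.09, with overlap. SOCS3, a feedback inhibitor, differed by -0.54 ± 0.34 (adjusted p 0.679) on its brightest probe set, by -0.13 against SN12C replicate 1 and -0.95 against replicate 2. Its other probe sets differed by -0.32, -0.14 and -0.06, with overlap. IRF1, a factor that binds the response element letters shown above, was singled out after its values were seen. It had 8.11 and 8.26 in LM2 cells, 8.47 in LM1 cells, and 8.75 and 8.66 in SN12C cells. IRF1 was lower in LM2 without overlap (-0.52 ± 0.10, adjusted p 0.390). The other IRF genes of the list did not follow it. IRF9 was higher in LM2 without overlap (0.21 ± 0.08, adjusted p 0.591), and IRF2 differed by -0.02, with overlap.

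The mean of the 10 members, each taken relative to its own mean over the arrays, was 0.11 and 0.04 on the LM2 arrays, 0.02 on the LM1 array, and -0.17 and 0.00 on the SN12C arrays. The 3 genes most like this profile, of 12294 compared over the 5 arrays by Pearson r, were MAPK7, GOLPH3 and HYAL2, each with r = 0.998. With so few arrays, SN12C replicate 1 is the farthest point of the profile, and these r values describe the 5 arrays only.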

How the data were processed

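The deposited value table holds log2 signals of 54675 probe sets on 5 arrays, and Partek and RMA are named in the submitters' processing notes, with no version or role. No further normalization was applied. Probe sets were named from the platform annotation: 41091 had 1 gene symbol, 1801 had several and were not used for a gene, and 11721 were not listed. The 62 Affymetrix control probe sets were left out of tests. Tests were limited to probe sets at or above 6.03, the 40th percentile over all arrays, on 2 or more arrays. One mean per line was fitted to all 5 arrays with limma 3.58.1 (R 4.3.3; lmFit and eBayes, 2 residual degrees of freedom), with Benjamini-Hochberg adjustment over the 33376 probe sets tested and a threshold of 0.05. The fit was run on simulated data with known shifts, where the check covered the mean estimated differences and not the number called. Each member is described through its brightest probe set and its others by value or range; genes of the other lists are named where they are among the 3 with the largest LM2 minus SN12C difference without overlap. Levels are compared within a probe set, never between probe sets. The members and lists were chosen with earlier results of these data known. Promoter windows are from RefSeq, GRCh38.p14. Arrays hold no read depth, so the number of arrays limits the precision. Alternatives were other filters, normalizations, eBayes options, 1 probe set per gene, the arrays of LM2 and SN12C alone, a replicate block, no _x_at or _s_at probe sets, and each array left out.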

Additional observations from a re-analysis of the deposited data

How the results depend on the processing

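No member passed the adjusted threshold between LM2 and SN12C in any setting except with SN12C replicate 2 left out. Leaving out each array in turn gave 0 to 8105 probe sets and 0 to 6 members for LM2 against SN12C, 0 to 10386 and 0 to 7 for LM1 against SN12C, and 0 to 5776 and 0 to 6 for LM2 against LM1. Fits without an SN12C array rest on the spread of LM2 only, and fits without an LM2 array on that of SN12C only, with the lone array assumed to vary alike. With quantile normalization 1156 probe sets passed for LM1 against SN12C (424 higher, 732 lower, 1 of them a member) and 325 for LM2 against LM1 (1 a member). In all other settings run the counts stayed at 0, by limma; unadjusted p-values under 0.05 numbered 3178 between LM2 and SN12C. The replicate block gave 0 calls, 0 of them members, and 2292 unadjusted. The replicate numbers are shared by number only. Across tested probe sets, the replicate 1 minus 2 differences in LM2 and in SN12C correlated at 0.07.

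The median over the member probe sets, 0.08 between LM2 and SN12C, was 0.12 with 1 probe set per gene, 0.11 with the 60th percentile filter, -0.047 with quantile normalization and -0.0082 without _x_at and _s_at probe sets, and 0.0137 to 0.115 with each array left out. Between LM1 and SN12C it was -0.09, and -0.00865, -0.157 and -0.03997 with 1 probe set per gene, quantile normalization and no _x_at or _s_at probe sets, -0.03947 centred on array medians and -0.11 to -0.079 with each array left out. Between LM2 and LM1 it was 0.05, and -0.0385 with 1 probe set per gene, 0.225 with the 60th percentile filter, 0.0147 centred on array medians, 0.0077 without _x_at and _s_at probe sets and 0.0482 to 0.085 with each array left out.

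Some gene differences changed sign, and the cause was not tested. Between LM2 and SN12C, quantile normalization gave -0.0683 for HLA-F and -0.0825 for TAPBP. With each array left out HLA-F ranged over 0.00 to 0.17, TAPBP over -0.13 to 0.25 and PSMB8 over -0.12 to 0.64. Between LM1 and SN12C, quantile normalization gave -0.0261 for TAPBP and -0.00957 for ERAP1, and with each array left out B2M ranged over -0.36 to 0.00, TAPBP over -0.11 to 0.26 and PSMB8 over -0.69 to 0.0681. Between LM2 and LM1, TAPBP ranged over -0.10 to 0.0635. PSMB9, TAP1, TAP2, HLA-E, B2M, ERAP1 and NLRC5 kept their direction between LM2 and SN12C in all settings where their brightest probe set was tested. Without _x_at and _s_at probe sets the brightest probe sets of B2M, HLA-E, HLA-F, TAP1, PSMB8 and ERAP1 drop out, so these genes have no value there; the remaining HLA-E probe set differed by -0.10 between LM2 and SN12C, opposite to the brightest (0.16). The arrays give no read depth, and dim probe sets near the filter have little signal over background.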

Other observations

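Ligands that alert NK cells, a list outside the class I pathway, had 5 of 8 genes tested and 0 past the threshold between LM2 and SN12C. Their median difference was 0.34 log2 units, beside 0.03 for all tested genes. Against SN12C replicate 1 alone the 5 genes differed by -0.003 to 1.24, and against replicate 2 alone by -0.26 to 0.11. Without overlap 1 of 5 lay above, against 25.3% of all tested genes, and none below, against 14.1%. MICB, a stress ligand of the NKG2D receptor, had 10.05 and 10.03 in LM2 cells, 10.02 in LM1 cells, and 9.37 and 10.02 in SN12C cells. Its LM2 arrays were above both parental arrays (0.34 ± 0.27, adjusted p 0.679), by 0.67 against replicate 1 and by 0.02 against replicate 2. ULBP2, another such ligand that was picked after its values were seen, had 8.33 and 8.37 in LM2 cells, 8.52 in LM1 cells, and 7.11 and 8.61 in SN12C cells, with overlap. SN12C replicate 1 was the low array for both, as it was for PSMB8, PSMB9 and TAP1.

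Calnexin (CANX), the chaperone that first folds the class I heavy chain, differed by probe set in LM1 cells in the way that B2M and TAPBP did; it too was picked after its values were seen. Its brightest probe set had 13.09 and 13.15 in LM2 cells, 12.80 in LM1 cells, and 12.97 and 13.15 in SN12C cells. A dimmer one had 11.96 and 12.03 in LM2 cells, 9.31 in LM1 cells, and 11.12 and 12.12 in SN12C cells. On the second the LM1 array was lowest, at -2.30 relative to the SN12C mean, and SN12C replicate 1 was also below the other three arrays.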
